A study of Mus musculus with 24 samples.

Results

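The insulin-like growth factor (IGF) genes described here are a set of 10 chosen by name: the ligands Igf1 and Igf2, the receptor Igf1r, the adaptor Irs2 and the binding proteins Igfbp2, Igfbp3, Igfbp4, Igfbp5, Igfbp6 and Igfbp7. All 10 of the 10 were on the array, among 23787 genes with a name, and they were read by 13 of the 34566 probes that carry a gene name.

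The series measured hippocampal RNA of 48 male Swiss-Webster mice, each animal on its own, on 24 arrays that each held 1 control and 1 treated animal. The stated age of the mice is 12 weeks, and the methods of the study place a habituation period between that age and the treatment. Treated mice drank corticosterone at 100 µg/ml, dissolved with 0.45% hydroxypropyl-β-cyclodextrin, through the 12 h dark phase, and control mice drank the same vehicle without the hormone. Animals were killed in hour 1, hour 5 or hour 9 of the light phase that followed, which gives 6 groups of 8 animals: control and corticosterone at each of the 3 hours. By the methods of the study, control mice were brothers of the treated ones and each group drew on several litters, but the files do not give the litter of an animal, so the fit holds no term for it. The study asks how the hippocampus responds to the hormone and how that response decays over the resting period, with changes over the hours in control animals as context. It reports that blood corticosterone of treated mice was above that of controls at hour 1. The level did not differ at hour 5 and was below that of controls at hour 9.

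Control RNA was dyed with Cy3 and corticosterone RNA with Cy5 on all 24 arrays, so a constant dye difference of a probe and an effect of corticosterone cannot be told apart in a comparison of treated with control animals. A dye difference of that kind does not enter a comparison of hours within 1 treatment, and it cancels in the change of the corticosterone effect from 1 hour to another. The arrays sat on 3 slides: slide 1 held 2 arrays of hour 1, 2 of hour 5 and 4 of hour 9, and slides 2 and 3 each held 3, 3 and 2. Median spot signals per array were at least 90 in Cy3 and ran from 136 to 185 in Cy5, and between 60.77% and 67.19% of spots in Cy3 and between 64.01% and 73.45% in Cy5 stood well above background. All 13 IGF probes stood well above background on all 48 channels, so none was dropped or filled in. The number of arrays, 8 per hour, limits the precision.

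A pair of arrays held animals that stood apart from their groups. The standard deviation of the log2 difference between an animal and the mean of its group's other animals, over 32033 probes with a mean intensity of 50 or more, was 0.491 for the corticosterone animal and 0.48 for the control animal of array 7 of hour 5, and 0.336 for the corticosterone animal of array 8 of hour 1. The other 45 animals ran from 0.171 to 0.28, with a median of 0.228. Corticosterone animal 8 of hour 1 was the lowest of its group for 5 and the highest for 4 of the 13 IGF probes. Called differences between corticosterone and control at the hour of such an array, and others there that moved by 0.05 or more without it, are given with and without it.

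IGF1 and IGF2 are secreted peptides that bind the receptor tyrosine kinase IGF1R, which passes the signal through docking proteins such as IRS2 to the kinases PI3K and Akt. Binding proteins of high affinity, and relatives of low affinity, carry the peptides, extend their stay in body fluids, and hold them back from the receptor or bring them to it, and proteases free the peptides again. In the brain the ligands support the survival of neurons, the growth of dendrites and myelin, and in the hippocampus the birth of granule cells and the storage of memory, with IGF2 coming chiefly from the choroid plexus and meninges in the adult.

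Levels are normalized probe intensities in arbitrary units, and differences are on the log2 scale with a standard error (SE). A probe is called when limma's p, adjusted over all 56605 probes by the method of Benjamini and Hochberg, is under 0.05. For corticosterone against control at hour 1, 3 of the 13 IGF probes were called beside 17.5% of all probes, 2 of them higher under corticosterone (8.84% of all probes) and 1 lower (8.67%). At hour 5 the same 3 probes were called beside 18.1% of all probes, again with 2 higher (8.62%) and 1 lower (9.47%). The count at hour 9 was 2 of 13 beside 14.0% of all probes, 1 higher (7.01%) and 1 lower (6.97%). Among the 32033 probes with a mean intensity of 50 or more, which all 13 IGF probes belong to, the called shares were 20.1% at hour 1, 20.1% at hour 5 and 14.0% at hour 9. The counts for the IGF probes lie near these backgrounds, so the number called is no result about the set, and what follows is about which members moved and when.

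Within control animals limma called 0 of the 13 probes between hours 1 and 5 (1 at an unadjusted p under 0.05), beside 0.00530% of all probes. It called 0 between hours 5 and 9 (2 unadjusted), beside 0.0336%, and 0 between hours 1 and 9 (4 unadjusted), beside 0.537%. Within corticosterone animals 1 probe was called between hours 1 and 5, beside 0.546% of all probes, 0 between hours 5 and 9 (2 at an unadjusted p under 0.05), beside 0.666%, and 1 between hours 1 and 9, beside 4.02%. The change of the corticosterone effect was called for 0 probes from hour 1 to 5 (0 unadjusted), beside 0.0389%, for 0 from hour 5 to 9 (3 unadjusted), beside 0.0830%, and for 1 from hour 1 to 9, beside 0.827%. Irs2 is the probe called in each of these comparisons that had a call.

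Effect sizes across the set were small. The median size of the log2 difference between corticosterone and control was 0.08 over the 13 IGF probes at hour 1, against 0.13 over all probes and 0.10 over those with a mean intensity of 50 or more. At hour 5 it was 0.11 for the IGF probes against 0.13 and 0.10, and at hour 9 it was 0.033 against 0.12 and 0.089. The signed medians of the 13 were 0.035, 0.0022 and -0.014 at hours 1, 5 and 9, so the set had no common direction.

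**Figure D1:**
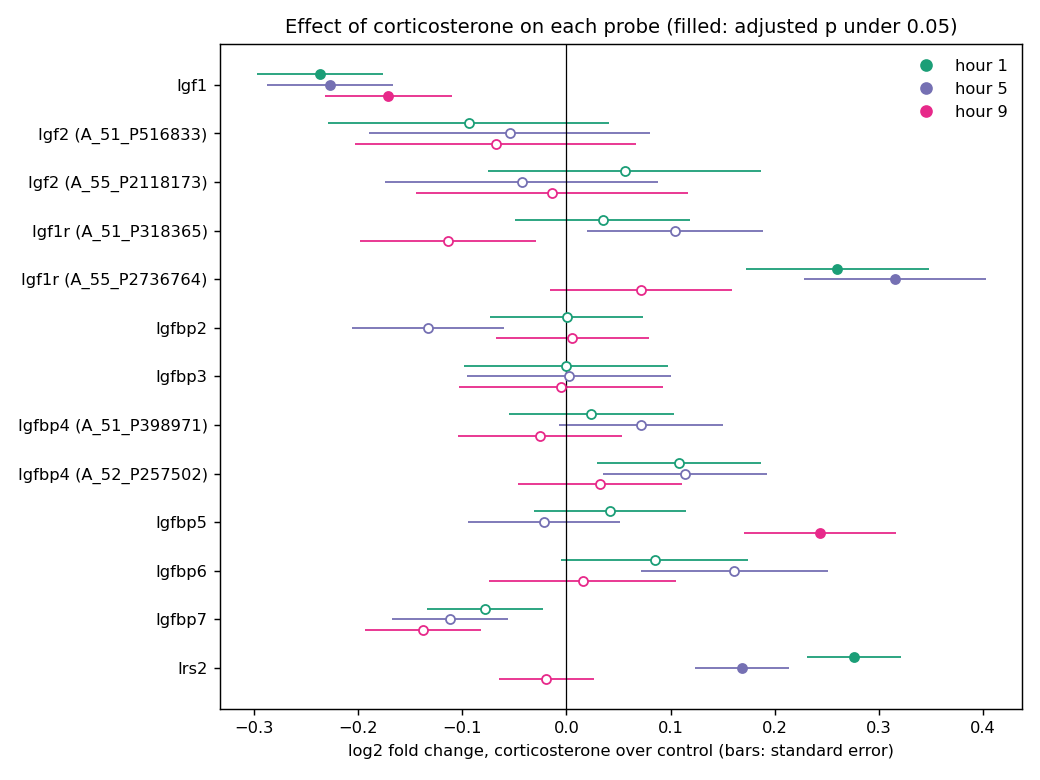
Log2 difference between corticosterone and control animals (horizontal axis) for the 13 IGF probes, with 1 point an hour as the fitted value and a bar for its SE, from 8 arrays an hour. Filled points are called. Irs2 falls from 0.28 to -0.02 across the hours, Igf1 lies below 0 at each hour, and Igfbp5 is called at hour 9 alone (0.24).

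Promoter sequences are shown for the 3 members called between treated and control animals at more than 1 hour: Igf1, Igf1r (on 1 of its 2 probes) and Irs2. They come from RefSeq on build GRCm38.p6, hold 300 bases from 250 before the annotated start, and read 5′ to 3′ on the gene's strand: chr10:87860861-87861160 on the plus strand for Igf1, chr7:67952007-67952306 on the plus strand for Igf1r and chr8:11008880-11009179 on the minus strand for Irs2. Capitals mark a match to a searched motif.
Igf1: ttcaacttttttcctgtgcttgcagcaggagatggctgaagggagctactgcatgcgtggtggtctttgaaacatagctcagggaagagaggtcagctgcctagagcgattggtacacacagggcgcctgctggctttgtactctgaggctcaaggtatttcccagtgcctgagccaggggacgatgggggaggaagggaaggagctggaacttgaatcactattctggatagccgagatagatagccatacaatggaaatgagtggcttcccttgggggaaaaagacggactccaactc
Igf1r: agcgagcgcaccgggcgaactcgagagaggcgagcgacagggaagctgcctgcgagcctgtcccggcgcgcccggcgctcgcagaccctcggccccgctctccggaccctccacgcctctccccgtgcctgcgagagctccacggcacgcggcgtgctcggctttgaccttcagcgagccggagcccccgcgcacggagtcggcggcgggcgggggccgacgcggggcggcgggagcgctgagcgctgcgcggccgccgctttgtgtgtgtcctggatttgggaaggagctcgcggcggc
Irs2: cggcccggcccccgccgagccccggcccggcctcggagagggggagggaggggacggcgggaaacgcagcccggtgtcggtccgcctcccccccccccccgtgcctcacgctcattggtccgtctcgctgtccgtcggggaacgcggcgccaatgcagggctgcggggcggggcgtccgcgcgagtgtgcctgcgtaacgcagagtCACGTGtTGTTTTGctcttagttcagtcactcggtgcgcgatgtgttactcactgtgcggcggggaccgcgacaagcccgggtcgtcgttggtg
Both strands were searched for 4 motifs: the glucocorticoid receptor palindrome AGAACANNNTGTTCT, its single arm AGAACA, the E-box CACGTG that clock proteins bind, and the insulin response element CAAAACA that FoxO factors bind. AGAACA is contained in the palindrome, and CACGTG reads alike on both strands. In Irs2, CACGTG begins 44 bases before the start and is followed after 1 base by TGTTTTG, which is CAAAACA on the other strand and begins 37 bases before the start, so the matches do not overlap. The Igf1 and Igf1r windows hold none of the 4 motifs. Promoters were found for 10 of the 10 members, 14 in all among 32851. CACGTG occurs in 7.15% of the 32851 promoters and in 2 of the 14, those of Igfbp2 and Irs2. CAAAACA occurs in 6.28% and in 1 of the 14, AGAACA in 19% and in 2 of the 14, those of Igf2 and Igfbp2, and the palindrome in 0.00913% and in 0 of the 14. A match describes letters in this window and is no evidence of binding.

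Igf1 encodes the ligand that mediates much of growth hormone's action in the body and is also made by cells of the brain itself. In control animals its intensity had a lowest, median and highest value of 216, 236 and 254 at hour 1, of 200.2, 224 and 255 at hour 5 and of 221, 230.3 and 273 at hour 9. In corticosterone animals the values were 168, 198 and 233 at hour 1, 158, 191 and 218 at hour 5 and 190.2, 201 and 251 at hour 9. At hours 1 and 5 all 8 treated animals lay below the control median, and at hour 9 6 of 8 did, while the ranges overlapped at each hour. The order of the medians put the 3 control groups on top (hours 1, 9 and 5) and the 3 corticosterone groups below (hours 9, 1 and 5), and within either treatment no hour was called apart from another. The log2 difference was -0.24 (SE 0.0608, adjusted p 0.00388, lower in 7 of 8 arrays) at hour 1, a level 15.1% lower. It was -0.23 (SE 0.0608, adjusted p 0.00555, 7 of 8 arrays) at hour 5 and -0.17 (SE 0.0608, adjusted p 0.0397, 6 of 8 arrays) at hour 9. Igf1 was thus the 1 member called at all 3 hours, and no change of its effect was called: the change from hour 1 to 9 was 0.066 (95% interval -0.11 to 0.24, adjusted p 1). Igf1 has 1 probe, and its calls came only from comparisons across the dyes, which were the same on every slide. A constant dye difference of that probe and an effect of the hormone cannot be told apart in them. In bulk hippocampus, fewer cells of a type and less RNA per cell cannot be told apart either.

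Slide means of the Igf1 log2 ratio were below 0 on each slide at each hour. They were -0.31, -0.21 and -0.21 on slides 1, 2 and 3 at hour 1, -0.21, -0.13 and -0.33 at hour 5, and -0.11, -0.21 and -0.26 at hour 9. Without array 8 of hour 1 the difference at hour 1 was -0.28 (adjusted p 0.000938), and without array 7 of hour 5 the one at hour 5 was -0.24 (adjusted p 0.0079). With the log2 ratios of the authors the Igf1 difference was smaller at each hour, at -0.15, -0.15 and -0.11. The call ended at hour 1 without slide 2 (-0.25, adjusted p 0.0613) and at hour 5 without slide 3 (-0.16, adjusted p 0.184) or with the log2 ratios of the authors (adjusted p 0.0519). At hour 9 it ended under 8 of 17 alternatives, with differences from -0.23 without slide 1 to -0.11 with the log2 ratios of the authors and adjusted p from 0.051 to 0.183.

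Igf2 encodes the fetal growth factor whose expression in the adult brain lies mostly in choroid plexus and meninges. Its brighter probe had control values of 309, 447 and 534 (lowest, median, highest) at hour 1, 249.6, 406 and 606 at hour 5 and 341, 364 and 637 at hour 9. The corticosterone values were 294, 393 and 565 at hour 1, 322, 408 and 541 at hour 5 and 336, 365 and 488 at hour 9. Animals of a single group differed widely, the ranges of all 6 groups overlapped, and the neighbours in the order of the medians that were tested were not called apart. The log2 differences at hours 1, 5 and 9 were -0.09, -0.05 and -0.07 (adjusted p 0.674, 0.794 and 0.775, lower in 4, 5 and 4 of 8 arrays). The 95% interval at hour 1, from -0.37 to 0.18, shows how large a change these arrays could have missed. The other Igf2 probe gave 0.06, -0.04 and -0.01 (adjusted p 0.788, 0.825 and 0.947), and 0.14 (adjusted p 0.491) at hour 1 without array 8. Across animals the probes followed each other, with Pearson's r of 0.792 over the 24 control and 0.808 over the 24 corticosterone animals.

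**Figure D2:**
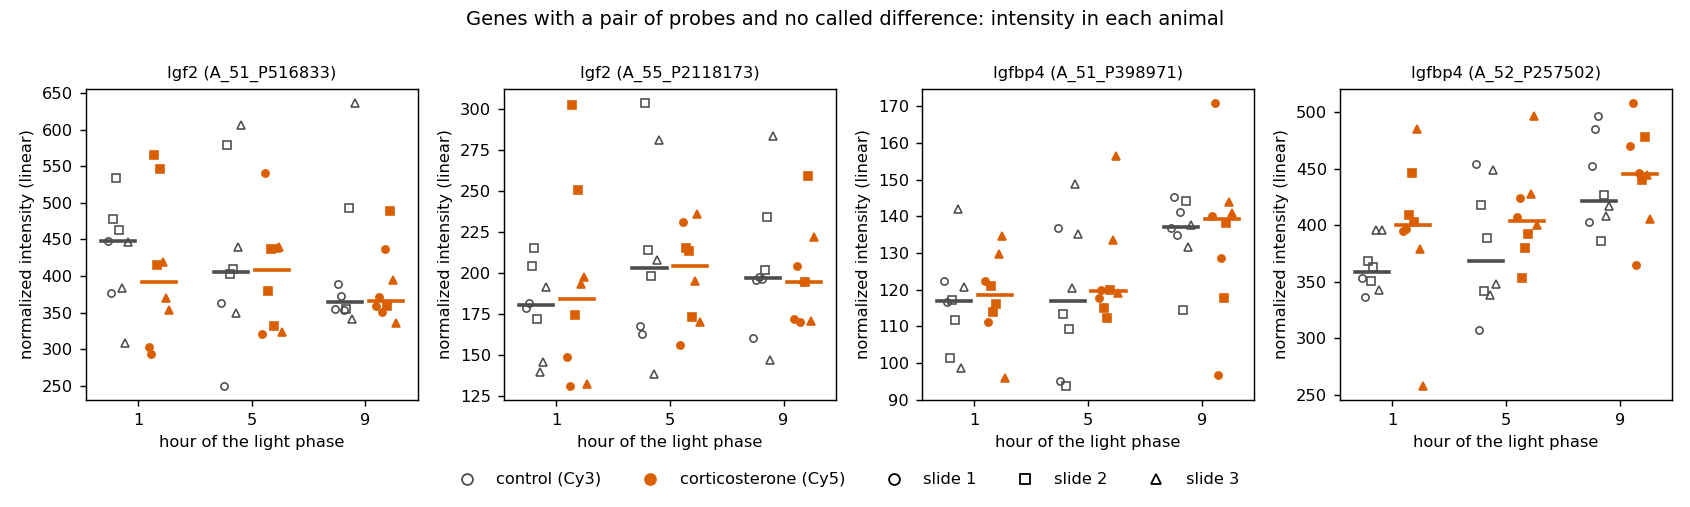
Normalized intensity (linear axis, arbitrary units) of every animal for the pairs of probes of Igf2 and Igfbp4, by hour and treatment, with slides as symbols and lines at the medians. Control and corticosterone animals overlap in every panel, and at hour 1 corticosterone animal 8 lies lowest at 258 on the brighter Igfbp4 probe (A_52_P257502).

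Igf1r encodes the receptor tyrosine kinase for both ligands, and its pair of probes gave different answers. On the brighter probe, A_51_P318365, control values were 1304, 1533 and 1735 at hour 1, 1486, 1759 and 1992 at hour 5 and 1307, 1794 and 2111 at hour 9. Corticosterone values were 1029.5, 1626 and 1997, then 1676, 1889.9 and 2045, then 1334, 1523 and 2105. The groups overlapped throughout, and the log2 differences of 0.03, 0.10 and -0.11 were not called (adjusted p 0.809, 0.396 and 0.374, in that direction in 4, 5 and 5 of 8 arrays). Without array 8 of hour 1 the first was 0.09 (adjusted p 0.447). On the other probe, A_55_P2736764, control values were 1167, 1255 and 1546 at hour 1, 1170.1, 1463 and 1596 at hour 5 and 1132, 1553 and 1943 at hour 9. Corticosterone values were 1127, 1593 and 1957, then 1522, 1874 and 2008, then 1350.4, 1507 and 2100.1. Here 7 of 8 corticosterone animals at hour 5 lay above every control animal. The log2 difference was 0.26 (SE 0.0876, adjusted p 0.0253, 6 of 8 arrays) at hour 1, 0.32 (SE 0.0876, adjusted p 0.00609, 8 of 8) at hour 5 and 0.07 (adjusted p 0.628, 4 of 8) at hour 9.

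The gap between the Igf1r probes was of one size in every comparison across the dyes and near 0 in every comparison that does not cross them. The second probe's log2 difference exceeded the first's by 0.23, 0.21 and 0.19 at hours 1, 5 and 9 for corticosterone against control. Between hours within a treatment the gap ran from -0.05 to 0.07, and in the change of effect from -0.04 to -0.01. Animal by animal the probes moved together, with r of 0.92 in control and 0.954 in corticosterone animals. A dye difference of either probe and an effect of the hormone seen by 1 probe alone cannot be told apart in these arrays, so a rise of Igf1r under corticosterone rests on 1 of its 2 probes. Both probes gave a fall of the effect from hour 5 to hour 9, of -0.22 (adjusted p 0.978) and -0.24 (adjusted p 0.945), which was not called on either. Without array 8 of hour 1 the second probe's difference at hour 1 was 0.30 (adjusted p 0.00906), and without array 7 of hour 5 its difference at hour 5 was 0.32 (adjusted p 0.0149). Its call ended at hour 1 without slide 2 (0.22, adjusted p 0.249) or slide 3 (0.29, adjusted p 0.0664), and at hour 5 without slide 3 (0.31, adjusted p 0.0523).

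Irs2 encodes the docking protein that links the activated IGF and insulin receptors to PI3K, and it was the member whose response changed over the hours. Control intensities were 5503, 5944 and 6545 at hour 1, 5116, 5561 and 6026 at hour 5 and 5037, 5761 and 6166 at hour 9. Corticosterone intensities were 5995, 7274 and 8166 at hour 1, 5483, 6267 and 6568 at hour 5 and 5155, 5603 and 6148 at hour 9. At hours 1 and 5, 7 of the 8 corticosterone animals lay above every control animal of that hour and the eighth lay within the control range, and at hour 9 the groups overlapped almost wholly. The order of the medians was corticosterone at hour 1, corticosterone at hour 5, control at hour 1, control at hour 9, corticosterone at hour 9 and control at hour 5. Of the neighbours in that order, corticosterone at hours 1 and 5 were called apart (adjusted p 0.0208), control at hours 1 and 9 (adjusted p 0.706) and the groups of hour 9 (adjusted p 0.81) were not, and the others differ in both hour and treatment and were not tested. All neighbours overlapped in range.

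The log2 difference of Irs2 between corticosterone and control was 0.28 (SE 0.0453, adjusted p 4.23e-06, higher in 8 of 8 arrays) at hour 1, a level 21.1% higher. At hour 5 it was 0.17 (SE 0.0453, adjusted p 0.00343, 7 of 8 arrays), 12.4% higher, and at hour 9 it was -0.02 (95% interval -0.11 to 0.07, adjusted p 0.81, lower in 5 of 8). The change of the effect was -0.30 from hour 1 to hour 9 (SE 0.0641, 95% interval -0.42 to -0.17, adjusted p 0.00271), so the loss of the effect was itself called, in a comparison from which a constant dye difference cancels. Over the shorter steps it was -0.11 from hour 1 to 5 (adjusted p 1) and -0.19 from hour 5 to 9 (adjusted p 0.413), not called on either. Most of the change lay in the corticosterone animals. There Irs2 differed by -0.22 between hours 1 and 5 (SE 0.0528, adjusted p 0.0208), by -0.15 between hours 5 and 9 (adjusted p 0.198) and by -0.36 between hours 1 and 9 (adjusted p 1.3e-06), a level 22.2% lower. In control animals the differences were -0.11 between hours 1 and 5 (adjusted p 0.663) and -0.07 between hours 1 and 9 (adjusted p 0.706), not called.

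Slides differ in how many arrays of each hour they hold, so the Irs2 values are given within slides as well. The mean log2 ratio on slides 1, 2 and 3 was 0.19, 0.27 and 0.34 at hour 1, 0.09, 0.21 and 0.18 at hour 5 and -0.09, 0.06 and 0.04 at hour 9. The change from hour 1 to 9 was -0.28, -0.21 and -0.29 within the 3 slides, so it has 1 sign on each. Within corticosterone animals that step was -0.36, -0.33 and -0.39 and within control animals -0.07, -0.12 and -0.10. Without array 8 of hour 1 the effect at hour 1 was 0.26 (adjusted p 4.94e-05) and the change from hour 1 to 9 -0.27 (adjusted p 0.0108), and without array 7 of hour 5 the effect at hour 5 was 0.15 (adjusted p 0.0194). The call of the change ended with the scanner's processed signals (-0.28, adjusted p 0.283), without slide 1 (-0.25, adjusted p 0.242) and without slide 3 (-0.28, adjusted p 0.177). The call at hour 5 ended with the processed signals (0.16, adjusted p 0.109) and without slide 2 (0.15, adjusted p 0.0627) or slide 3 (0.16, adjusted p 0.085), and that between hours 1 and 5 in corticosterone animals ended in 5 of 14 alternatives, with its size smallest and its p largest with processed signals (-0.12, adjusted p 0.718). The calls at hour 1, and between hours 1 and 9 in corticosterone animals, held in all 17 and all 14 alternatives.

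**Figure D3:**
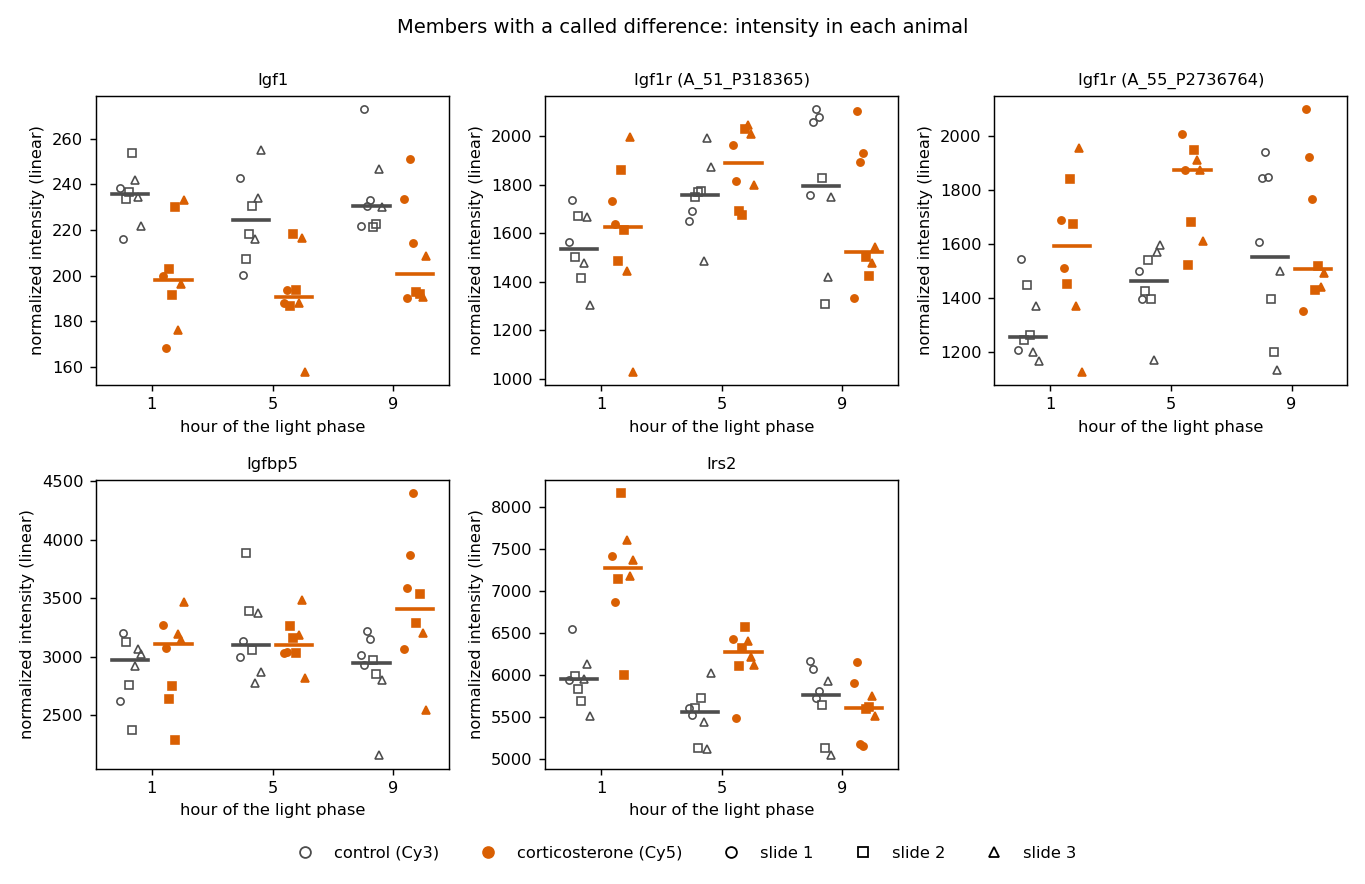
Normalized intensity (linear axis, arbitrary units) of every animal for Igf1, both Igf1r probes, Igfbp5 and Irs2, by hour and treatment, with slides as symbols and lines at the medians. For Irs2 the corticosterone animals run from 5995 to 8166 at hour 1 and from 5155 to 6148 at hour 9, while control animals run from 5037 to 6545 over all hours.

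**Figure D4:**
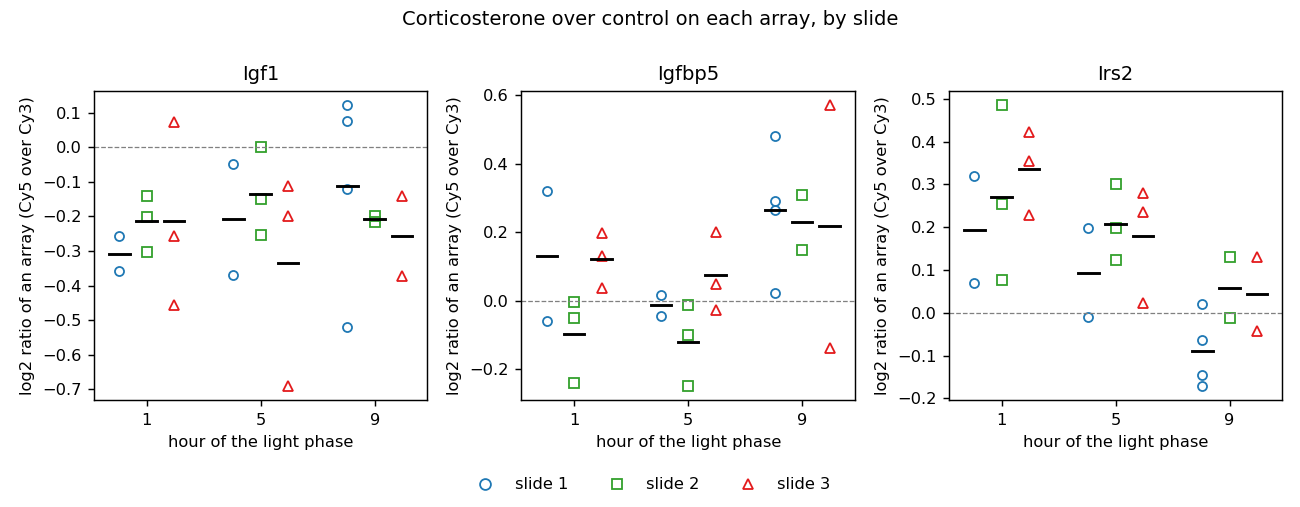
Log2 ratio of the corticosterone to the control animal of each array (points) on slides 1, 2 and 3 at each hour, for Igf1, Igfbp5 and Irs2, with bars at the slide means. The slide means of Irs2 fall from between 0.19 and 0.34 at hour 1 to between -0.09 and 0.06 at hour 9, those of Igfbp5 at hour 9 are 0.27, 0.23 and 0.22, and those of Igf1 are below 0 throughout.

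Igfbp5, a binding protein that also attaches to extracellular matrix, was called at hour 9 alone. Control intensities were 2373, 2969.6 and 3202 at hour 1, 2775, 3098 and 3883 at hour 5 and 2159, 2949 and 3216 at hour 9. Corticosterone intensities were 2293, 3111 and 3466 at hour 1, 2816, 3103 and 3488 at hour 5 and 2546, 3410.4 and 4397 at hour 9. At hour 9, 5 of the 8 corticosterone animals lay above every control animal, although the ranges overlapped, and at the earlier hours the groups were mixed. Corticosterone at hour 9 had the highest median of the 6 groups, and the other 5 medians, from 2949 to 3111, had no tested neighbours called apart. The log2 difference was 0.24 (SE 0.073, adjusted p 0.0137, higher in 7 of 8 arrays, 18.4%) at hour 9, against 0.04 (adjusted p 0.732) at hour 1 and -0.02 (adjusted p 0.871) at hour 5. A later appearance of the effect is not shown, since its change was 0.26 from hour 5 to 9 (adjusted p 0.701) and 0.20 from hour 1 to 9 (adjusted p 0.678). Slide means at hour 9 were 0.27, 0.23 and 0.22, but the arrays of slide 3 had opposite signs, at 0.57 for array 7, whose control animal was the lowest at 2159, and -0.14 for array 8. With slide 1 left out, and with it 4 of the 8 arrays of hour 9, the difference was 0.22 and the call ended (adjusted p 0.207). Without slide 3 the step from hour 1 to 9 within corticosterone animals was called (0.37, adjusted p 0.0128), where with all slides it was 0.20 (adjusted p 0.197).

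Igfbp7, a relative with low affinity for IGFs that is abundant in vessel walls, lay lower under corticosterone at each hour without a call. Its control values were 2853, 3339 and 3782 at hour 1, 3072, 3384 and 4109 at hour 5 and 3149, 3477 and 3761 at hour 9. Its corticosterone values were 2747, 3015 and 3941, then 2879.7, 3236 and 3485, then 2743, 3194 and 3619.6. The 3 corticosterone medians were the lowest of the 6, with all ranges overlapping. Log2 differences were -0.08, -0.11 and -0.14 (adjusted p 0.315, 0.132 and 0.0679), each lower in 7 of 8 arrays. At hour 9 Igfbp7 passed the threshold in 4 alternatives: with processed signals (adjusted p 0.0335), in the test on log ratios (0.0282), with the arrays of that hour alone (0.0486) and with the log2 ratios of the authors (0.0276).

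Igfbp4 inhibits IGF action until the protease PAPP-A cleaves it. On its brighter probe control values were 337, 358 and 396 at hour 1, 307, 368 and 454 at hour 5 and 386, 422 and 497 at hour 9, and corticosterone values were 258, 399.9 and 485, then 353, 404 and 496, then 364, 445 and 508. The highest medians in both treatments were those of hour 9, with overlap between all groups. In control animals the step from hour 1 to 9 was 0.25 (adjusted p 0.233, 7 of 8 animals of hour 9 above every animal of hour 1) on this probe and 0.23 (adjusted p 0.323) on the other, and in corticosterone animals it was 0.18 on both, none of them called. Across animals the probes had r of 0.727 in control and 0.758 in corticosterone animals. Corticosterone against control gave 0.11, 0.11 and 0.03 at hours 1, 5 and 9 (adjusted p 0.343, 0.33 and 0.833). The value at hour 1 rests on animal 8, the lowest at 258: without its array, an alternative chosen after seeing the data, the difference was 0.21 and called (adjusted p 0.0226). The other probe, which read 98.6 to 142 in control and 95.9 to 134.7 in corticosterone animals at hour 1, gave 0.02 (adjusted p 0.885) with that array and 0.07 (adjusted p 0.591) without it. A rise of Igfbp4 at hour 1 thus depends on 1 array and shows on 1 of its 2 probes.

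The remaining binding proteins gave no call against control at any hour. Igfbp2, the main IGF binding protein of cerebrospinal fluid, had group medians from 674 to 743, with single animals from 466 to 868. Its log2 differences were 0.00, -0.13 and 0.01 at hours 1, 5 and 9 (adjusted p 0.996, 0.191 and 0.974), and without array 8 of hour 1, whose corticosterone animal was the lowest at 466, the first was 0.07 (adjusted p 0.446). Igfbp3, the main carrier of IGFs in serum, had group medians from 2049 to 2369 and animals from 1650.3 to 3267. Its differences were within 0.01 of 0 at all 3 hours (adjusted p 0.999, 0.995 and 0.979), and the 95% interval at hour 1 was -0.20 to 0.20, so a change of that size could have been missed. Without array 8 of hour 1 the value at hour 1 was -0.06 (adjusted p 0.7), and without array 7 of hour 5 the value at hour 5 was -0.05 (adjusted p 0.808). Igfbp6, which prefers IGF2, had group medians from 1567 to 1799.7 and animals from 1169.7 to 2411. Its differences were 0.08, 0.16 and 0.02 (adjusted p 0.539, 0.198 and 0.935), with 7 of 8 arrays higher at hour 5, and the first was 0.01 (adjusted p 0.952) without array 8 of hour 1. For each of the 3 genes the ranges of all 6 groups overlapped, and no neighbours in the order of medians that were tested were called apart.

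To show which transcripts varied alike between animals, 15436 named genes with a mean intensity of 50 or more were compared with each member. The 3 genes with the highest Pearson's r over the 24 control animals, all hours together, are given. The r over the 24 corticosterone animals stands beside it, and all the points share arrays and normalization. For Igf1 they were Kcnv1 (r 0.789 in control, 0.267 in corticosterone animals), Pla1a (0.78 and 0.0405) and Snx7 (0.734 and 0.45). Igf2 went with Pcolce (0.85 and 0.795), Aldh1a2 (0.807 and 0.874) and Gjb2 (0.804 and 0.543), of which Aldh1a2 is on the list of meningeal markers. Igf1r went with Wdr83os (0.809 and 0.645), Nabp2 (0.804 and 0.505) and Gabrb1 (0.801 and 0.693), and Irs2 with Asb6 (0.741 and 0.534), Commd7 (0.731 and 0.326) and Cox4i1 (0.676 and 0.229). Among the binding proteins, where 2 genes are given for Igfbp5, Igfbp4 went with Lyrm9 (0.788 and 0.778), Tmem254a (0.782 and 0.573) and Lrfn3 (0.773 and 0.614). For Igfbp5 the genes were Mical2 (0.845 and -0.0415) and Dad1 (0.832 and 0.0802), for Igfbp3 Plagl1 (0.819 and 0.289), Rhcg (0.761 and 0.19) and Nrip3 (0.743 and -0.205), and for Igfbp7 Tcirg1 (0.801 and 0.366), Rnf114 (0.775 and 0.367) and Rpl15 (0.772 and 0.0903). For Igfbp2 they were Rprl2 (0.676 and 0.157), Gpr25 (0.669 and 0.387) and Pcif1 (0.657 and 0.361), and for Igfbp6 Khnyn (0.69 and 0.375), Evpl (0.684 and 0.605) and Crtac1 (0.678 and -0.0184). Since these genes were picked for a high r in control animals, the fall in r between treatments is a description and was not tested.

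The wider pathway was read from 9 lists with 79 genes, of which 78 had a probe, 120 probes in all; Igf1os had none. At hour 1, 14 of the 120 probes were higher and 5 lower under corticosterone (15.8% called), at hour 5 11 were higher and 9 lower (16.7%), and at hour 9 10 were higher and 5 lower (12.5%). These shares lie near those of all probes, and the median log2 differences were 0.0193, 0.0116 and 0.0271. Between hours limma called 0 of the 120 in control animals in each of the 3 steps (7, 5 and 15 at an unadjusted p under 0.05 from hour 1 to 5, 5 to 9 and 1 to 9). In corticosterone animals it called 1 higher and 1 lower from hour 1 to 5, 1 lower from hour 5 to 9, and 3 higher and 3 lower from hour 1 to 9. The change of effect was called for 1 higher and 1 lower probe from hour 1 to 9 and for 0 in the shorter steps (2 unadjusted from hour 1 to 5 and 7 from hour 5 to 9).

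By list, the called probes at hours 1, 5 and 9 were as follows. Other ligands and receptors had 0 of 7 called by limma at each hour (2, 1 and 1 at an unadjusted p under 0.05). Relatives of the binding proteins had 3, 2 and 1 higher of 8 and 0 lower, and proteases and regulators of binding proteins had 1 higher of 8 at each hour with 1 lower at hour 9. The growth hormone axis had 2, 1 and 1 higher of 12 with 1 lower at hour 5, and proteins that bind IGF mRNA had 0, 1 and 1 higher of 5 (1 unadjusted at hour 1). Among signalling proteins, adaptors and negative regulators had 3, 2 and 2 higher of 22 with 0, 1 and 1 lower, and the PI3K and Akt list had 3, 2 and 3 higher of 32 with 3, 2 and 1 lower. The mTORC1 list had 1, 0 and 0 higher and 2, 5 and 2 lower of 20, and the FoxO list 1, 2 and 1 higher of 6 and 0 lower, with Foxo6 called at each hour. With lists this short, no direction is read from the counts.

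Htra1 encodes a secreted protease with a domain like that of the binding proteins, and it followed the course of Irs2 at a larger size. Its brighter probe read 15890, 18050 and 21460 in control animals and 24960, 26310 and 37620 in corticosterone animals at hour 1, so the groups did not overlap. The log2 difference was 0.60 (adjusted p 3.39e-10, 8 of 8 arrays) at hour 1, 0.45 (adjusted p 4.7e-07) at hour 5 and 0.09 (adjusted p 0.323) at hour 9, and the change from hour 1 to 9 was -0.51 (adjusted p 0.000219). Its other probe gave 0.70, 0.51 and 0.18 (adjusted p 2.58e-05, 0.00167 and 0.351), with a change of -0.53 that was not called (adjusted p 0.181). Stat5b, a transcription factor of growth hormone signalling, had the same order with a call at hour 1: 0.26, 0.12 and 0.06 (adjusted p 0.00582, 0.239 and 0.63), and its change of -0.20 was not called (adjusted p 0.659).

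Several pathway genes held their difference at all 3 hours. Each is given by the probe picked by its call, and any other probes of the gene are not shown. For none of these probes was the change from hour 1 to 9 called. A constant dye difference of a probe and a lasting effect of the hormone cannot be told apart here. Foxo6, a forkhead factor that Akt restrains, was higher by 0.41, 0.37 and 0.52 at hours 1, 5 and 9 (adjusted p 6.34e-06, 3.6e-05 and 1.27e-07), and at hour 9 its lowest corticosterone animal (7702) lay above the highest control animal (6132). The adaptor Grb2, which leads to Ras, was higher by 0.21, 0.18 and 0.13 (adjusted p 5.31e-05, 0.000477 and 0.00939). Irs1, the docking protein closest to Irs2, was higher by 0.15, 0.20 and 0.13 (adjusted p 0.0124, 0.000749 and 0.0304), and its change from hour 1 to 9 was -0.02 (adjusted p 1), so a fall like that of Irs2 was not called for it. Gsk3a, a kinase that Akt inhibits, was higher by 0.15, 0.16 and 0.16 (adjusted p 0.00686, 0.00389 and 0.00349). Pappa, which encodes the protease PAPP-A that cleaves Igfbp4, was higher by 0.18, 0.26 and 0.18 (adjusted p 0.0306, 0.00351 and 0.0491). Rheb, the activator of mTORC1, differed by -0.18, -0.14 and -0.12 (adjusted p 0.00241, 0.0178 and 0.048), and the S6 kinase gene Rps6kb1 by -0.20, -0.21 and -0.21 (adjusted p 0.0203, 0.0163 and 0.0194).

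Others were called at 1 hour, and apart from Ptpn11 each is given only by the probe picked by its call. Akt2, a kinase of the central branch, differed by -0.07, -0.04 and 0.24 (adjusted p 0.291, 0.598 and 0.000305), and its change from hour 1 to 9 of 0.32 was called (adjusted p 0.00464). Htra3, a relative of Htra1, gave 0.02, 0.04 and 0.23 (adjusted p 0.902, 0.735 and 0.0128), and Igf2bp3, which binds IGF mRNA, gave 0.08, 0.19 and 0.22 (adjusted p 0.514, 0.0559 and 0.0332). For Htra3 and Igf2bp3 the change from hour 1 to 9, of 0.21 and 0.15, was not called (adjusted p 0.553 and 0.903). Pik3r3, a regulatory subunit of PI3K, was lower at hour 1 (-0.20, adjusted p 0.00792), and Grb10, an adaptor that inhibits the receptors, was lower at hour 5 (-0.32, adjusted p 0.00666). The phosphatase gene Ptpn11 had probes with opposite signs: A_51_P173622 gave 0.15, 0.11 and 0.10 (adjusted p 0.00891, 0.0559 and 0.0766) and A_66_P101820 gave -0.10, -0.13 and -0.17 (adjusted p 0.188, 0.0583 and 0.022), so no direction is given for it.

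**Figure D5:**
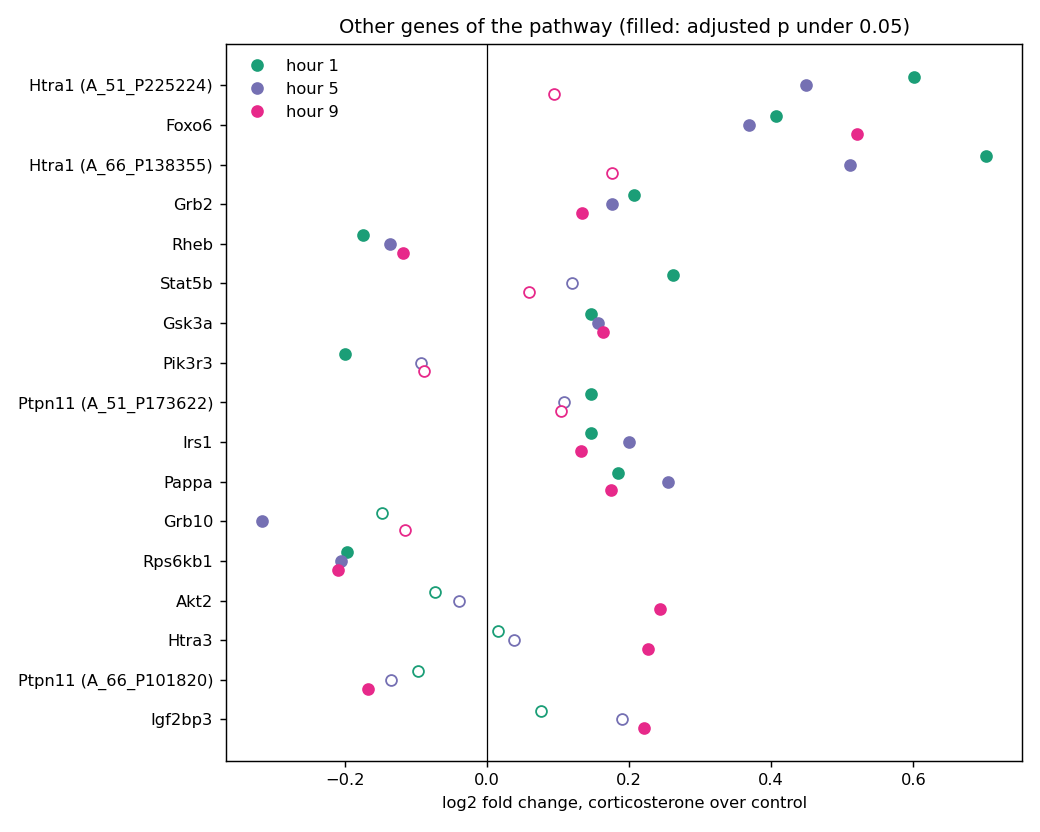
Log2 difference between corticosterone and control animals (horizontal axis) at hours 1, 5 and 9, 1 point an hour, for the 17 pathway probes named, with filled points for calls. Htra1 falls from 0.60 to 0.09, Akt2 rises from -0.07 to 0.24, and Foxo6 (0.37 to 0.52) keeps its sign and call at each hour.

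Marker genes of 9 cell types were read beside the IGF genes, 77 genes in all, with each on 1 list and each with a probe. The lists are described by the probes called higher and lower at hours 1, 5 and 9, and 8 of the 9, without the oligodendrocyte list, also by the summed intensity of their genes as medians of 8 animals. For hippocampal excitatory neurons (9 genes, 14 probes, most abundant Camk2a) 2, 1 and 2 probes were higher and 0 lower. Their sums were 121500, 131000 and 117000 in control and 124700, 124800 and 124200 in corticosterone animals, and all 14 probes had a mean intensity of 50 or more, so markers of the labelled tissue were present. Interneurons (7 genes, 8 probes, most abundant Sst) had 0 (3 unadjusted), 4 and 2 higher and 0 lower, with sums of 82640, 81170 and 84640 in control and 88540, 91980 and 93020 in corticosterone animals. Astrocytes (6 genes, 13 probes, most abundant Aldoc) had 3 higher at each hour and 2, 6 and 6 lower, with sums of 90450, 96560 and 92250 against 106000, 101800 and 100800. The astrocyte sum is mostly Aldoc, and the median log2 difference over the probes of that list was 0.04, -0.19 and -0.14, so sum and list differ in direction at hours 5 and 9. For interneurons the medians were 0.04, 0.15 and 0.12, in the direction of the sum.

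Oligodendrocytes (6 genes, 11 probes) had 3, 3 and 2 higher and 2, 4 and 3 lower. Microglia (8 genes, 10 probes, most abundant Csf1r) had 0 higher and 3, 2 and 1 lower, with sums of 20910, 21990 and 23690 against 20450, 21650 and 22800. The medians of the microglial sum lay lower at the same hours as Igf1, by less than the spread of the animals (20010 to 24140 in control animals at hour 1).

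Endothelial cells (9 genes, 13 probes, most abundant Ly6c1) had 3, 2 and 2 probes higher and 7, 4 and 4 lower. Their sums had lowest, median and highest values of 18370, 20100 and 22820 in control and 16740, 17810 and 18700 in corticosterone animals at hour 1. At hour 5 these were 19090, 21000 and 24720 against 16770, 18690 and 19670, and at hour 9 18570, 20090 and 22170 against 16760, 18430 and 20620. The endothelial sum was lower under corticosterone at each hour with overlap, as the vascular Igfbp7 was, but the median log2 difference over the probes of the list was -0.26, -0.04 and 0.10. Ly6c1 itself was higher at hour 1 (0.29, adjusted p 0.00182) and not at hour 9 (-0.14, adjusted p 0.158). Mural cells (8 genes, 12 probes, most abundant Acta2) had 0 higher and 1 lower at each hour, with sums of 12450, 13480 and 13530 against 12390, 12890 and 13370.

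Choroid plexus and meninges matter for Igf2. The choroid plexus list (13 genes, 20 probes of which 9 had a mean intensity of 50 or more, most abundant Enpp2) had 4, 0 and 2 probes higher and 1, 1 and 0 lower. Its sums had lowest, median and highest values of 7009, 7651 and 8846 in control and 5783, 6398 and 8119 in corticosterone animals at hour 1. At hour 5 these were 4540, 8096 and 9462 against 4161, 6602 and 7420, and at hour 9 6190, 8134 and 8669 against 5895, 6749 and 8156. These sums are mostly Enpp2. They were lower under corticosterone, while the median log2 difference over the probes of the list was 0.04, 0.01 and 0.07, so sum and list differ in direction. Enpp2 differed by -0.30, -0.35 and -0.25 (adjusted p 0.0429, 0.0174 and 0.112). The list of meninges and fibroblasts (11 genes, 13 probes, most abundant Dcn) had 1, 0 and 0 higher and 0, 2 and 0 lower (7, 8 and 1 in either direction at an unadjusted p under 0.05), with sums of 11610, 12810 and 12550 in control and 11100, 10080 and 10700 in corticosterone animals. Its median log2 differences were -0.20, -0.29 and -0.18. Dye and treatment cannot be told apart in these sums either, and the part of any cell type in the results for the IGF genes was not tested.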

How the data were processed

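Hippocampal RNA of 48 mice was measured on 24 arrays. The deposited scanner files give, for both dyes, a spot intensity and a local background intensity as medians over pixels, unnormalized, and also processed intensities that the scanner software had corrected and dye-normalized. The authors deposited a matrix of log2 ratios of Cy5 over Cy3 as well, whose column medians ran from 0.002392 to 0.008888. Its log2 scale and its direction are borne out by ratios computed from the scanner files (r 0.795 to 0.8602), and the study names background subtraction and lowess normalization in the scanner software, while the centring of this matrix is not stated and remains unknown.

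In R 4.3.3 with limma 3.58.1 and statmod 1.5.0, the spot intensities of 62976 spots, 3671 of them controls, were background-corrected (normexp, offset 50 for p and 0 for fold changes and SE), loess-normalized within arrays without the control spots, quantile-normalized between channels, and, with spots the scanner marked as outliers removed, averaged over copies to 56605 probes. All 48 channels entered 1 separate-channel fit of 6 groups with the intraspot correlation. limma's moderated tests gave 12 comparisons with p adjusted over all 56605 probes by Benjamini and Hochberg, and a probe was called at an adjusted p under 0.05. Probes were named by matching the file's transcript or gene identifier, which named 34566 of 56605. The steps were tested on simulated data.

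A member was represented by its brightest probe with its other probes beside it, and marker sums and r also used the brightest probe of a gene. Pathway genes are given by the probes that the rule below picked, which need not be the brightest. Other probes of a pathway gene are given only for Htra1 and Ptpn11. Pathway probes named are those called with a mean intensity of 50 or more, up to the 10 smallest adjusted p in each comparison of corticosterone with control; from each marker list its most abundant gene; and the 3 genes most like each member. Of the genes this rule picks, 3 are not described. The values of named genes at the other hours, and other probes where they are given, were added after they were seen. The members and all lists were chosen with earlier results of these data known.

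Alternatives were offset 0 for p, offset 50 for fold changes, no background correction, median centring, Aquantile, processed signals, 2 filters on dim probes, slide as a block, the test on log ratios, the arrays of 1 hour alone, leaving out each slide, and the log2 ratios of the authors. Leaving out array 8 of hour 1 or array 7 of hour 5 was chosen after seeing the data. No sample was left out otherwise.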

Additional observations from a re-analysis of the deposited data

Results flagged for a closer look

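Among 78 groups of 8 animals (13 probes in 6 groups), 6 had a lowest or highest animal whose gap to the next, as a share of the group's range, was larger than Dixon's critical value, and in these 6 it was the lowest. With both ends tested chance gives about 1 in 20 groups, or 3.9 of the 78, and probes of the same gene were read in the same animals. For Irs2 the low animal was of the corticosterone group at hour 5 on slide 1, at 5483 against 6103 to 6568 in the others (gap 0.594). Igfbp5 had a low control animal at hour 9 on slide 3, at 2159 against 2800 to 3216 (gap 0.653). The second Igf1r probe had a low control animal at hour 5 on slide 3, at 1170 against 1396 to 1596 (gap 0.567). Corticosterone animal 8 of hour 1 on slide 3 was low for Igfbp2, at 466.2 against 649.6 to 856.4 (gap 0.545), and for the brighter Igfbp4 probe, at 257.6 against 378.6 to 485.3 (gap 0.608). The other Igfbp4 probe had a low control animal at hour 9 on slide 2, at 114.6 against 131.6 to 145.4 (gap 0.581).

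The effect of corticosterone on Irs2 differed between hours 1 and 9 by -0.2955 on the log2 scale in limma's test of the difference itself (adjusted p 0.00271).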

How the results depend on the processing

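Under 17 alternatives (fewer where one cannot give a comparison) no called difference reversed. Of the 13 IGF probes, corticosterone against control at hour 9 called 1 in place of 2 with offset 0, with Aquantile, and without slide 2 or slide 3, and 0 without slide 1. At hour 1 it called 1 in place of 3 without slide 2, and at hour 5 0 in place of 3 without slide 3. The call in corticosterone animals from hour 1 to 5 became 0 in place of 1 with offset 0, processed signals, and without slides 1, 2 or 3. From hour 1 to 9 they gave 2 in place of 1 without slide 3, and the change of effect from hour 1 to 9 gave 0 in place of 1 with processed signals and without slide 1 or 3. Fits without a slide hold fewer arrays; the cause of the other moves was not tested. Over all probes, leaving out slides 1, 2 and 3 moved the count from 9916 to 6622, 4518 and 5306 at hour 1, from 10239 to 6082, 7141 and 4107 at hour 5, and from 7914 to 1874, 4736 and 4946 at hour 9. In corticosterone animals it moved from 309 to 150, 114 and 49 from hour 1 to 5, from 377 to 12, 139 and 118 from hour 5 to 9, and from 2277 to 751, 1260 and 1003 from hour 1 to 9. In control animals it moved from 304 to 5, 237 and 135 from hour 1 to 9, from 19 to 0, 4 and 2 from hour 5 to 9, and from 3 to 1 without slide 1 and 0 without slide 3 from hour 1 to 5. The change of effect moved from 468 to 123, 258 and 175 from hour 1 to 9, from 47 to 0 without slide 1 and 4 without slide 3 from hour 5 to 9, and from 22 to 7 without slide 3 from hour 1 to 5. With offset 0 the counts in corticosterone animals were 200 from hour 1 to 5 and 229 from hour 5 to 9, and in control animals 1 and 10, while processed signals gave 10 in control animals from hour 1 to 5. Among the 32033 brighter probes alone, 6692 were called at hour 5 and 4467 at hour 9. Without array 8 of hour 1, chosen after seeing the data, the count from hour 1 to 5 was 194 in corticosterone and 10 in control animals, and hour 1 called 4 IGF probes. Without array 7 of hour 5, chosen likewise, control animals gave 1 from hour 1 to 5 and 501 from hour 1 to 9. The share called higher also moved by more than 10 points in comparisons between hours. In control animals from hour 5 to 9 it went from 36.8% of 19 to 50% of 12 with Aquantile and 47.4% with processed signals, and from hour 1 to 9 from 53.6% to 80% of 5 without slide 1 and 41.5% without slide 3. In corticosterone animals from hour 5 to 9 it went from 41.4% to 8.33%, 22.3% and 54.2% without slides 1, 2 and 3 and 53.9% without array 7 of hour 5, from hour 1 to 9 from 54.9% to 41.5% without slide 1, and from hour 1 to 5 from 46.3% to 34% without slide 1 and 26.5% without slide 3. For the change of effect from hour 1 to 9 it went from 30.6% to 12.2% without slide 1 and 19% without slide 2. Further moves of this size had 18 or fewer probes called. All 13 probes stood above background on every channel, and the part of signal intensity in these moves was not tested.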
